A study of Mus musculus with 33 samples.

Results

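The cells described here are mouse cells on day 3 of reprogramming that did not carry the surface antigen SSEA1 (d3 SSEA1-), and they were compared with the mouse embryonic fibroblasts (MEF) that reprogramming starts from. The libraries were chosen by their sample labels alone, 3 d3 SSEA1- libraries and 3 MEF libraries, which are 6 of the 33 libraries in the series. All carried the strain label 129SV/Jae/C57BL6J. The d3 SSEA1- cells had been cultured in embryonic stem (ES) cell medium with doxycycline (dox) and ascorbic acid (AA), and MEFs in MEF medium. The d3 SSEA1+ cells, the antigen-positive sort of the same day, and d6 SSEA1- cells, the negative sort of day 6, had the same strain label and the same dox and AA culture, and their values are given beside some results. The sources used here do not say which transgenes dox switched on or in which cells, so effects of the medium, of dox, of AA, of the factors and of days in culture cannot be told apart. No label says that replicates were separate cultures. Each p-value therefore measures only the spread between libraries within the groups of the series, which may be technical.

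MEFs are a mixed culture of embryo connective tissue cells that secrete collagen-rich matrix and carry actin stress fibres. Reprogramming to induced pluripotent stem cells forces expression of transcription factors, usually Oct4 (Pou5f1), Sox2, Klf4 and Myc, and its early steps are known for loss of the fibroblast programme, faster division and gain of epithelial features. SSEA1 is a fucosylated carbohydrate, made with enzymes such as Fut9 and Fut4, that mouse ES cells display, and cells that have not acquired it during reprogramming are known to form colonies less often than those that have.

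Poly-A RNA was read as counts per gene. Reads counted in genes numbered 28.04, 26.71 and 41.69 M in the d3 SSEA1- libraries (replicates 1, 2 and 3), against 23.01, 14.37 and 8.93 M in the MEF libraries, and values of replicates are given in that order throughout. Levels are CPM, counts scaled to a library of 1 M reads after TMM normalisation. A gene with 0 reads could have up to 3, which is 0.072 to 0.112 CPM in d3 SSEA1- and 0.13 to 0.336 CPM in MEF libraries, and this floor covers counting error only. The 20 most abundant genes took 6.73 to 6.96% of counts in d3 SSEA1- libraries and 14.44 to 19.93% in MEF libraries. Replicates correlated at r = 0.966 to 0.989 across genes within a group, and the first principal component, with 72.9% of the variance, separated the groups.

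The SSEA1- libraries as a class stand apart in a way that touches this comparison. Genes with GC-rich transcripts were lower in d3 SSEA1- than in MEF libraries: the median log2 fold change was -1.28 over 296 genes with at least 62% GC, -0.21 over 7056 genes of 52 to 62%, 0.29 over 8224 genes of 42 to 52% and 0.55 over 1104 genes under 42%. On the log2(CPM + 1) scale the GC-richest genes had a median difference of -0.54 between d3 SSEA1- and MEF libraries and of -0.11 between d3 SSEA1+ and MEF libraries. The same genes differed by -0.33 between the SSEA1- and SSEA1+ libraries of day 6 and by -0.46 between those of the iPS stage. By a rule chosen after the values were seen (the lowest of the 18 MEF and SSEA1+ libraries at 1 CPM or more and at least 3 times the highest of the 15 SSEA1- libraries), 3 genes were lower in every SSEA1- library of every stage and 0 were higher. One was Gm23935, a 57-base RNA annotated as a miRNA, with at most 0.0757 CPM in d3 SSEA1- and 197 to 845 CPM in MEF libraries. The others were Scand1, with at most 0.427 CPM against 14.9 to 21.4 CPM, and Mrps34, with at most 0.233 CPM against 4.0 to 6.28 CPM. The cause of this split was not tested. List counts are therefore also given, where they move by over 1.5 times, from a fit with the GC trend removed.

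A gene was called higher or lower where edgeR's quasi-likelihood test gave a Benjamini-Hochberg adjusted p under 0.05 over 17326 tested genes and the change was at least 2-fold. In d3 SSEA1- against MEF libraries 2651 genes were higher (15.3%) and 2574 lower (14.9%), and 476 of the higher and 857 of the lower genes differed by at least 8-fold. The median log2 fold change of all tested genes was 0.07, the value to set beside each list's median below. The balance of the 2 directions depends on scaling. With DESeq2's size factors 2071 genes were higher and 3006 lower, and with library totals alone, which raise the median of all genes by 0.28 on the log2 scale, 3892 were higher and 1964 lower. With each of the 6 libraries left out in turn, 1505 of the higher and 1827 of the lower genes were called in all 6 fits. The d3 SSEA1- libraries did not overlap the MEF libraries, whether called or not, for 5074 genes that were higher (29.3%) and 4154 that were lower (24%).

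**Figure D1:**
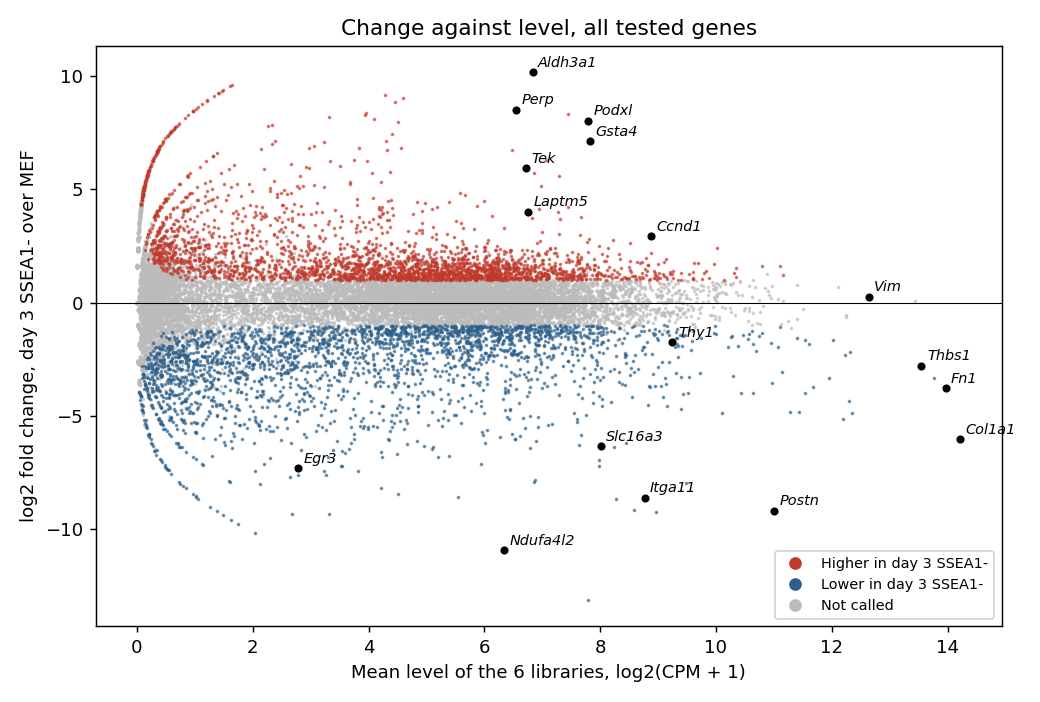
Change against level. Each point is 1 of the 17326 tested genes, with the mean level of the 6 libraries as log2(CPM + 1) across and the log2 fold change, d3 SSEA1- over MEF, up the page; the 2651 genes called higher and the 2574 called lower are coloured, the rest are grey and labelled genes are black. The most abundant called genes lie below 0, among them collagens and Fn1.

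The genes with the largest increases were nearly silent in MEFs. Aldh3a1, an aldehyde dehydrogenase, had 251, 259 and 170 CPM in d3 SSEA1- and 0.407, 0 and 0 CPM in MEF libraries (log2 fold change 10.17 ± 1.07 SE, adjusted p = 9.85e-08). Its MEF reads were 7, 0 and 0, so the size of this fold is uncertain: it was 9.57 to 15.32 with a library left out. Podxl, a sialomucin that human pluripotent cells display at their surface, had 564, 303 and 452 CPM in d3 SSEA1- and 2.73, 0.651 and 1.39 CPM in MEF libraries (8.03 ± 0.651, adjusted p = 3.66e-09). Perp, a desmosome-associated p53 and p63 target, had 324, 115 and 114 CPM in d3 SSEA1- against 0.697, 0.279 and 0.417 CPM in MEF libraries (8.52 ± 1.18). That the groups do not overlap was part of the rule that chose the 15 largest changes in each direction. Fgf4, the autocrine growth factor of ES cells, had 64, 29.4 and 32.4 CPM in d3 SSEA1- and 0.0581, 0.093 and 0.139 CPM in MEF libraries (adjusted p = 1.84e-07). Scg5, a chaperone of prohormone convertase, had 57.4, 23.2 and 29.3 CPM against 0, 0.093 and 0.139 CPM (adjusted p = 1.70e-08), and Gabra2, a GABA receptor subunit, 90.7, 24 and 25 CPM against 0.116, 0.093 and 0 CPM (adjusted p = 6.14e-05). MEF libraries held so few reads of these 3 genes that no fold is given. Among the other 9 of the 15 largest increases were L1td1, an RNA-binding protein of pluripotent cells, Gsta4, a glutathione transferase, Ehf, an epithelial ETS factor, Pllp, a membrane protein of epithelia and myelin, and Fgfbp1, a carrier of FGFs. Replicate 1 was the highest d3 SSEA1- library for many of them, and for Elmod1 it had 74.2 CPM against 5.54 and 5.93 CPM in replicates 2 and 3.

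Several of these genes were also high in the antigen-positive sort. The d3 SSEA1+ libraries had 376, 264 and 133 CPM of Aldh3a1, 350, 134 and 87.9 CPM of Perp, and 902, 444 and 419 CPM of Gsta4, and none of these passed the test between the sorts (d3 SSEA1- minus d3 SSEA1+ -0.18, adjusted p = 0.907, for Aldh3a1, -0.05, adjusted p = 1.0, for Perp, and -0.39, adjusted p = 0.644, for Gsta4). Tests of single genes between the sorts, here and below, did not pair libraries by replicate number. Those against d6 SSEA1- libraries did not either. Podxl and Pllp were lower in d3 SSEA1- than in d3 SSEA1+ cells. Podxl had 564, 303 and 452 CPM in d3 SSEA1- and 1535, 1306 and 1749 CPM in d3 SSEA1+ libraries (-1.80 ± 0.475, adjusted p = 0.0143).

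The largest decreases included matrix proteins and their receptors. Postn, the matrix protein periostin, had 4.94, 11.5 and 4.82 CPM in d3 SSEA1- against 3507, 4454 and 4380 CPM in MEF libraries (-9.19 ± 0.959, adjusted p = 9.04e-08). Lrrc15, a surface protein of activated fibroblasts, had 1.58, 1.75 and 0.732 CPM against 679, 764 and 842 CPM (-9.16 ± 0.723). Eln, the elastin gene, had 0.405, 1.59 and 2.4 CPM in d3 SSEA1- and 542, 617 and 686 CPM in MEF libraries (-8.67 ± 0.883). The MEF libraries lay close together for each of these genes. Itga11, the collagen-binding integrin alpha 11, had 2.31, 2.87 and 1.51 CPM against 592, 919 and 1090 CPM, and Igfbp5, an IGF-binding protein, 2.67, 8.34 and 6.11 CPM against 1835, 991 and 1434 CPM. Ndufa4l2, a hypoxia-induced mitochondrial protein, had 0, 0.116 and 0.101 CPM in d3 SSEA1- against 210, 75.3 and 195 CPM in MEF libraries. The other 9 of the 15 were Scn7a, Olr1, Myo7a, Heyl, Pgm5, Crispld2, Mfap4, Spock3 and Kcnmb1, all with at most 1.44 CPM in any d3 SSEA1- library.

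**Figure D2:**
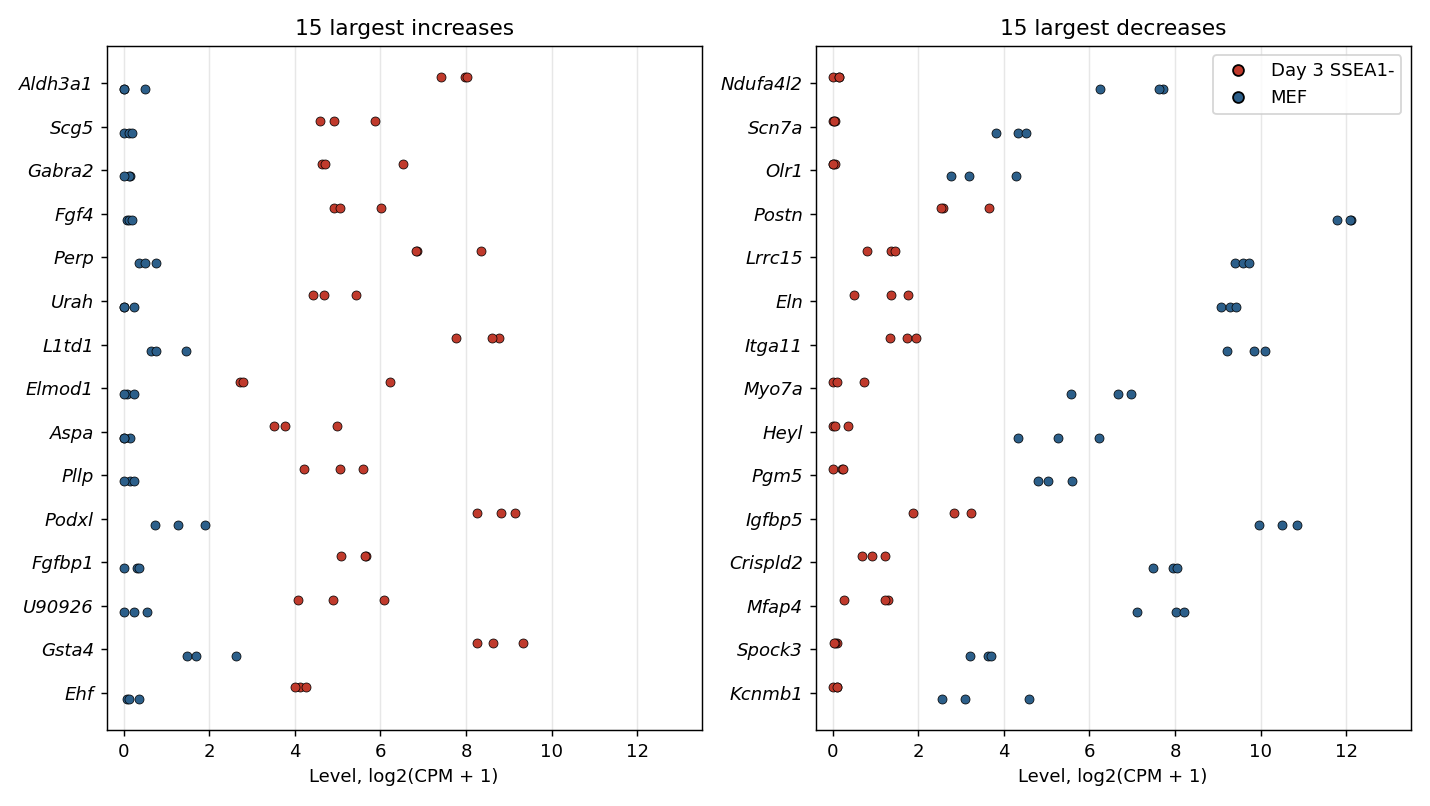
Levels of the 15 genes with the largest increases and the 15 with the largest decreases in each of the 6 libraries, as log2(CPM + 1). Each point is 1 library, d3 SSEA1- or MEF, and genes whose groups overlap were not eligible. Elmod1, at 74.2 CPM in d3 SSEA1- replicate 1 against 5.54 and 5.93 CPM in replicates 2 and 3, has the widest spread among the increases.

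The usual reprogramming factors were read first as a check of the labels, with the limit that reads of introduced copies and of the endogenous genes cannot be told apart. Pou5f1 had 104, 79.3 and 51.6 CPM in d3 SSEA1- and 4.82, 2.6 and 2.92 CPM in MEF libraries (4.47 ± 0.776, adjusted p = 5.41e-05). Sox2 had 5.07, 41.9 and 30.2 CPM against 5.81, 2.42 and 4.04 CPM (2.63 ± 0.750, adjusted p = 0.00589), and its d3 SSEA1- replicate 1 lies within the MEF range. Myc had 236, 394 and 501 CPM against 87.2, 102 and 104 CPM (1.95 ± 0.398, adjusted p = 3.11e-04). Klf4 did not pass the test, with 113, 140.3 and 118 CPM in d3 SSEA1- and 100.5, 48.8 and 79.7 CPM in MEF libraries (0.70 ± 0.362, adjusted p = 0.122), but with the GC trend removed it was called higher (1.62, adjusted p = 3.70e-04). Between the sorts of day 3 Sox2 and Klf4 were lower in d3 SSEA1- cells: d3 SSEA1+ libraries had 350, 317 and 365 CPM of Sox2 (-3.74, adjusted p = 0.00222) and 623, 566 and 691 CPM of Klf4 (-2.34, adjusted p = 5.21e-04). Pou5f1, with 222, 227 and 228 CPM in d3 SSEA1+ libraries, did not pass that test (-1.53, adjusted p = 0.130). It was called lower in a fit that paired the libraries of these sorts by replicate number.

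The fibroblast matrix fell from the chains to the enzymes that cross-link them. Of 22 fibrillar, network and associated collagen chains 20 fell and 0 rose (median -3.36). Col1a2, the second chain of type I collagen, had 1618, 3669 and 2427 CPM in d3 SSEA1- against 22750, 27320 and 26180 CPM in MEF libraries (-3.31 ± 0.686, adjusted p = 3.62e-04). Col3a1, of type III collagen, had 154, 546 and 343 CPM against 10790, 7459 and 11870 CPM (-4.85 ± 0.889). Col7a1, of anchoring fibrils, had 2.43, 5.54 and 4.19 CPM against 182, 832 and 476 CPM (-6.93 ± 0.686). Within d3 SSEA1- cells replicate 1 was the lowest library and replicate 2 the highest for each of these chains. In bulk samples fewer fibroblasts and less RNA per cell cannot be told apart, here and below.

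Of 16 enzymes and chaperones that modify, fold and cross-link collagen 14 fell (median -2.60). P4ha1 and P4ha2, subunits of prolyl hydroxylase, were at 84.6, 80 and 63.1 CPM in d3 SSEA1- against 1135, 932 and 866 CPM in MEF libraries (P4ha1, -3.69) and at 23.6, 30.2 and 23.3 CPM against 657, 370 and 461 CPM (P4ha2, -4.27 ± 0.323, adjusted p = 2.06e-09). Plod1, a lysyl hydroxylase, fell by 3.29 and Loxl2, a lysyl oxidase, by 3.98 on the log2 scale. For both prolyl hydroxylase subunits every d3 SSEA1- library was below every MEF library.

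Among 28 glycoproteins and elastic fibre genes 20 fell and 1 rose (median -3.24). Fn1, fibronectin, had 2159, 2697 and 1722 CPM in d3 SSEA1- against 16200, 44890 and 28400 CPM in MEF libraries (-3.77 ± 0.387, adjusted p = 7.32e-08). Tnc, tenascin C, had 348, 623 and 410 CPM against 6472, 6888 and 4793 CPM (-3.72 ± 0.576). The gene that rose was Nid2, the basement membrane linker nidogen 2, with 733, 660 and 560 CPM against 320, 171 and 249 CPM (1.40 ± 0.320, adjusted p = 9.12e-04).

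Matrix turnover and adhesion genes moved with the matrix. Of 22 proteases and inhibitors 15 fell (median -2.40), among them the membrane protease Mmp14, with 191, 276 and 160 CPM in d3 SSEA1- and 915, 1290 and 1079 CPM in MEF libraries (-2.39 ± 0.272). Of 25 integrin and laminin subunits 11 fell and 2 rose (median -0.86). The subunits that rose belong to epithelial contacts. Itgb4, the hemidesmosome integrin beta 4, had 237, 214 and 225 CPM in d3 SSEA1- against 3.6, 3.63 and 5.98 CPM in MEF libraries (5.71 ± 0.566, adjusted p = 4.53e-08), and Lama1, a laminin of embryonic basement membranes, 40.3, 110 and 94.8 CPM against 9.88, 35 and 19.8 CPM (1.93 ± 0.459).

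The contractile machinery fell with unequal depth. Of 22 contractile and filament genes 19 fell and 0 rose (median -1.81). Cnn1, the smooth muscle protein calponin, had 7.13, 9.03 and 5.48 CPM in d3 SSEA1- against 338, 993 and 463 CPM in MEF libraries (-6.38 ± 0.718). Acta2, smooth muscle actin, had 1723, 1585 and 1489 CPM against 6240, 10730 and 6987 CPM (-2.32 ± 0.509, adjusted p = 6.28e-04). Vim, the mesenchymal filament vimentin, was not called and had 6663, 6262 and 7924 CPM in d3 SSEA1- and 6977, 5359 and 5018 CPM in MEF libraries (0.26 ± 0.333, adjusted p = 0.552).

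Transcription factors of mesenchyme were split. Of 30 listed, 27 had enough reads to be tested, and of those 14 fell and 0 rose (median -1.65). Runx1, a Runt family factor, had 37.9, 39.5 and 35 CPM in d3 SSEA1- against 188, 227 and 212 CPM in MEF libraries (-2.48 ± 0.395). Snai1, a repressor of E-cadherin, had 2.19, 15.2 and 9.24 CPM against 81.7, 65.8 and 96 CPM (-3.19 ± 0.655), and its relative Snai2 22.4, 32 and 28.9 CPM against 80.7, 128 and 132 CPM (-2.03 ± 0.416). Prrx1 and Twist1 were not called. Prrx1, a limb mesenchyme homeobox gene, had 623, 691 and 482 CPM in d3 SSEA1- and 894, 615 and 907 CPM in MEF libraries, and Twist1 24.5, 51.9 and 52.4 CPM against 76.5, 46 and 66.5 CPM, so their ranges meet. Of 39 Hox genes, which hold the positional identity of fibroblasts, 37 were tested, 8 fell and 0 rose (median -0.65), and 1 rose with the GC trend removed. Of these Hoxb9 had 9.89, 17 and 16.1 CPM in d3 SSEA1- against 58.9, 74.4 and 49.5 CPM in MEF libraries.

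Signalling genes fell more often than they rose, with the BMP pathway going both ways. Of 20 TGF-beta ligands, receptors and feedback genes 11 fell and 0 rose (median -1.22). Tgfb1, the founding ligand, had 3.61, 14 and 5.71 CPM in d3 SSEA1- against 95.1, 214 and 140 CPM in MEF libraries (-4.27 ± 0.547). Inhba, the activin A subunit, had 10.2, 6.71 and 4.24 CPM against 136, 395 and 169 CPM (-5.05 ± 0.699), and Pmepa1, a feedback inhibitor, 30.1, 32.2 and 20.9 CPM against 313, 677 and 438 CPM (-4.10 ± 0.371, adjusted p = 1.60e-08). Of 19 tested BMP and Id genes, of 20 listed, 5 rose and 10 fell (median -1.74). Bmp6, a ligand, had 26.6, 27.3 and 35.2 CPM in d3 SSEA1- against 2.62, 2.04 and 2.09 CPM in MEF libraries (3.70 ± 0.453), and Id1, a direct BMP target, 94.9, 94.1 and 89.6 CPM against 33, 16.2 and 18.1 CPM (2.04 ± 0.384). The secreted BMP antagonist Grem1 had 18.9, 15.2 and 11.6 CPM against 77.7, 69.2 and 114 CPM (-2.51 ± 0.548).

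Of 26 Wnt ligands, antagonists and targets 17 fell and 0 rose (median -2.48, or -2.30 with a gene at 0 in d3 SSEA1- set at its bound). Antagonists, ligands and targets were all among them. Some of the 17 rest on few reads: MEF libraries had 8, 2 and 2 reads of Wnt6 and 9, 4 and 2 of Wnt7b. Wif1 had 3, 0 and 3 reads in d3 SSEA1- and 30, 1 and 0 in MEF libraries. Its groups overlap, and its adjusted p rose to up to 0.992 with a library left out. Dkk3, of the Dickkopf family, had 1.78, 12.9 and 6.31 CPM in d3 SSEA1- against 327, 408 and 458 CPM in MEF libraries (-5.82 ± 0.681). Wnt5a, a non-canonical ligand, had 33.1, 40.4 and 39.1 CPM against 202, 201 and 179 CPM (-2.37 ± 0.431). Axin2, a feedback target of beta-catenin, had 0.0405, 0.426 and 0.303 CPM against 5.64, 2.14 and 3.76 CPM (-3.87 ± 0.854), all low levels.

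Of 13 IGF pathway genes 9 fell and 1 rose (median -1.98). Igf2, a fetal growth factor expressed from the paternal allele, had 50.5, 195 and 695 CPM in d3 SSEA1- against 6770, 984 and 3263 CPM in MEF libraries (-3.55 ± 0.925), and both groups spread widely, d3 SSEA1- replicate 3 coming near MEF replicate 2. The gene that rose was Igfbp3, a secreted IGF carrier, with 708, 899 and 722 CPM against 392, 22.5 and 90.9 CPM (2.20 ± 0.588, adjusted p = 0.00351). Of 24 FGF genes 3 rose and 6 fell (median -0.06), where 15.3% of all tested genes were higher and 14.9% lower. This list does not hold Fgf4, which is named above among the largest increases. The ligands that fell, Fgf5, Fgf9, Fgf10 and Fgf21, averaged at most 4.53 CPM in MEF libraries. Etv5, an ETS factor induced by FGF signals, had 158, 96.1 and 129 CPM in d3 SSEA1- against 34.2, 38.7 and 35.1 CPM in MEF libraries (1.82, adjusted p = 5.44e-06), and the feedback inhibitor Spry1 had 3.81, 6.63 and 12.8 CPM against 57.6, 64.4 and 66 CPM (-3.01, adjusted p = 3.15e-06). Of 14 LIF and STAT3 genes 7 fell and 1, the receptor Il6ra, rose (median -1.35). Stat3 itself had 80.2, 156 and 105 CPM in d3 SSEA1- against 372, 267 and 317 CPM in MEF libraries (-1.49 ± 0.237).

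Of 20 AP-1 and immediate early genes, which serum and stress induce within minutes, 13 fell and 0 rose (median -1.80). Egr1 had 29.2, 122 and 116 CPM in d3 SSEA1- against 708, 522 and 727 CPM in MEF libraries (-2.87 ± 0.799, adjusted p = 0.00491), and Jun 40.1, 50.8 and 54.5 CPM against 371, 170 and 180 CPM (-2.31 ± 0.512). Fos was not called, with 137, 117 and 171 CPM in d3 SSEA1- and 428, 63.6 and 58 CPM in MEF libraries, and MEF replicate 1 decides its sign: without that library its log2 fold change was 1.10. Such genes also respond to trypsin digestion and sorting, which the labels' protocols give for all cells, and this was not tested.

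**Figure D3:**
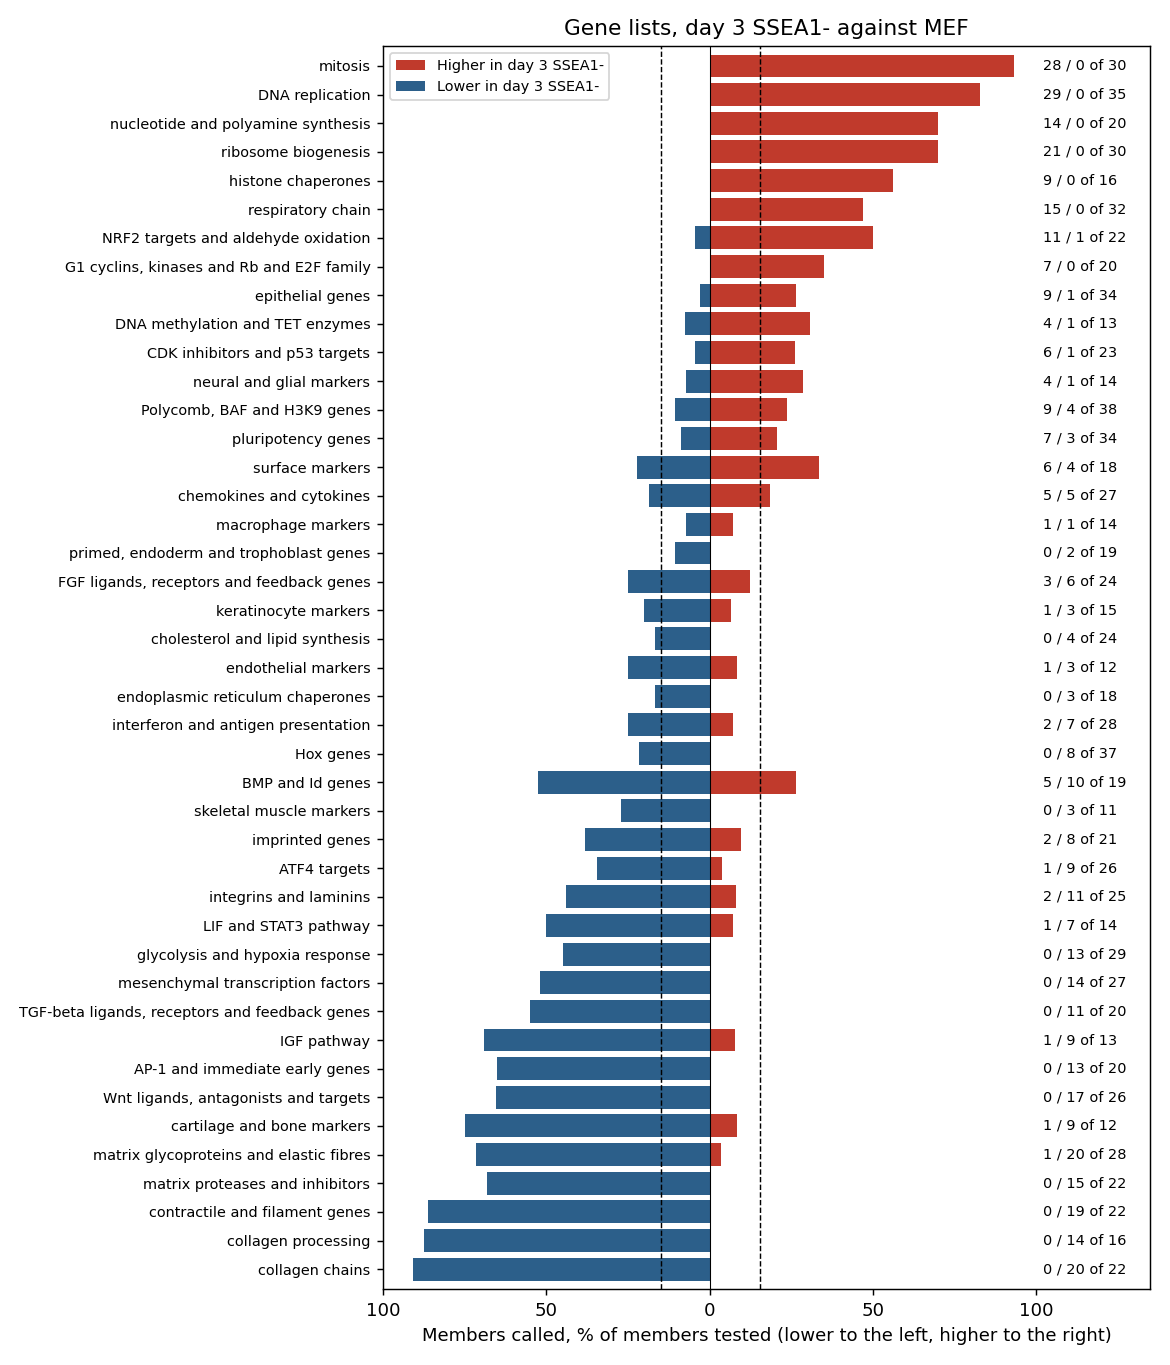
Share of the tested members of each gene list called higher (to the right) or lower (to the left) in d3 SSEA1- than in MEF libraries, in percent of the members tested, with dashed lines at 15.3% higher and 14.9% lower, the shares of all tested genes; lists with few tested members are not drawn. Collagen, collagen-processing and contractile lists lie almost wholly to the left, with 20 of 22, 14 of 16 and 19 of 22 members lower, and the mitosis and DNA replication lists to the right, with 28 of 30 and 29 of 35 members higher.

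The growth side of the comparison ran the other way. Of 35 DNA replication genes 29 rose and 0 fell (median 1.46), and of 30 mitosis genes 28 rose and 0 fell (median 1.45). Rrm2, the ribonucleotide reductase subunit made in S phase, had 872, 436 and 568 CPM in d3 SSEA1- against 176, 68 and 61.2 CPM in MEF libraries (2.62). Mcm10, a replication initiation factor, had 109, 65.1 and 82.5 CPM against 25.4, 9.86 and 11.8 CPM (2.43 ± 0.360). Cdk1, the kinase of mitotic entry, had 260, 236 and 325 CPM in d3 SSEA1- against 113, 53.8 and 46.2 CPM in MEF libraries (1.94), and Ccnb1, its cyclin B1 partner, 227, 185 and 233 CPM against 86.6, 27.1 and 28.4 CPM (2.18). MEF replicate 1 was the highest MEF library for each of these genes. The same holds for the lists as a whole: mean log2(CPM + 1) of the mitosis list was 7.36, 7.24 and 7.48 in d3 SSEA1- and 6.68, 5.27 and 5.33 in MEF libraries, and of the DNA replication list 6.40, 6.18 and 6.50 against 5.62, 4.38 and 4.53. Without MEF replicate 2 the mitosis count was 18 and the replication count 21. Without MEF replicate 1 they were 30 and 32.

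Many genes of these lists are known targets of E2F, which binds TTTGGCGC and TTTCCCGC, or of the DREAM complex, which binds TTTGAA in mitotic genes. In promoters from RefSeq (build GRCm38.p6, 250 bases before to 50 after each gene's start, both strands searched), TTTGGCGC or TTTCCCGC occurred in 8 of the 22 risen replication genes that had a promoter entry, of 29 that rose, against 1.8% of all 27025 genes with an entry. TTTGAA occurred in 15 of the 22 risen mitosis genes with an entry, of 28 that rose, against 20.2% of all genes with an entry. A match is a description of these letters and not a binding site. Pola1, the catalytic subunit of DNA polymerase alpha, and Cdk1 are shown as 1 example of each, with the matched letters in capitals; the match in Pola1 is the reverse complement of TTTGGCGC. The Pola1 promoter is at chrX:93632106-93632405, minus strand, and the Cdk1 promoter at chr10:69352863-69353162, minus strand, both 5′ to 3′.
Pola1: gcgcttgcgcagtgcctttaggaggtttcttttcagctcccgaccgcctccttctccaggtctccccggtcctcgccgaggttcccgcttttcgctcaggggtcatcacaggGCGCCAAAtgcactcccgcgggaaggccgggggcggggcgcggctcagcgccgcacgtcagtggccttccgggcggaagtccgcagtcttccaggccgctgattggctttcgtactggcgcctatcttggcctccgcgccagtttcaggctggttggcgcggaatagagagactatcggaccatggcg
Cdk1: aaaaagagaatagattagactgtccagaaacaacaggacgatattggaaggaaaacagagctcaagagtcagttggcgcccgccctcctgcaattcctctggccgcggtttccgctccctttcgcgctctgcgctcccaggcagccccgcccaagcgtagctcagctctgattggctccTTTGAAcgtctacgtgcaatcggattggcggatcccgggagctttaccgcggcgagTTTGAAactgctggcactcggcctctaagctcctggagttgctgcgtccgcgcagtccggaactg

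Of 20 G1 cyclins, kinases and Rb and E2F family members 7 rose and 0 fell (median 0.86). Ccnd1, cyclin D1, had 1011, 756 and 726 CPM in d3 SSEA1- against 161, 47.1 and 116 CPM in MEF libraries (2.94), and Rb1, the retinoblastoma brake on E2F, rose too, with 161, 115 and 85.1 CPM against 19.2, 33.6 and 20.2 CPM (2.31 ± 0.385). E2f2 had 10.3, 9.42 and 12.6 CPM against 3.08, 2.14 and 2.23 CPM (2.10 ± 0.315). The count is unstable: it was 3 with the GC trend removed, 4 with DESeq2's size factors, 3 without MEF replicate 3 and 4 without MEF replicate 2 or d3 SSEA1- replicate 1.

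Among 23 tested CDK inhibitors and p53 targets 6 rose and 1 fell (median 0.29), or 3 fell with the GC trend removed and 3 with DESeq2, and those that rose were p53 targets of several functions. Fas, a death receptor, had 31, 53.9 and 41.9 CPM in d3 SSEA1- against 6.28, 9.48 and 6.82 CPM in MEF libraries (2.49). Ei24, an endoplasmic reticulum protein, had 423, 257 and 283 CPM against 78.2, 99.3 and 76.1 CPM (1.92), and Bax, a pore former of apoptosis, 160, 260 and 329 CPM against 92.5, 120 and 102 CPM (1.25). The gene that fell was the CDK inhibitor Cdkn1c, with 1.99, 11.1 and 16.9 CPM in d3 SSEA1- against 143, 18.2 and 59.1 CPM in MEF libraries (-2.88 ± 0.839, adjusted p = 0.00691, and up to 0.0582 with a library left out). Cdkn1a and Cdkn2a were not called. Cdkn1a, p21, had 494, 507 and 397 CPM in d3 SSEA1- and 129, 460 and 305 CPM in MEF libraries (0.64 ± 0.443, adjusted p = 0.251). Cdkn2a, the Ink4a/Arf gene, had 25.1, 65.2 and 47.5 CPM against 20.8, 81 and 57.5 CPM (-0.21 ± 0.539, adjusted p = 0.799), and in both groups replicate 1 is its lowest library.

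Genes that supply a growing cell rose together with these. Of 30 ribosome biogenesis genes 21 rose and 0 fell (median 1.25). Dkc1, which modifies ribosomal RNA and holds telomerase RNA, had 295, 176 and 197 CPM in d3 SSEA1- against 64.6, 40 and 34.4 CPM in MEF libraries (2.26 ± 0.345), and Nop58, a snoRNP core protein, 524, 305 and 424 CPM against 154, 101 and 89.9 CPM (1.86 ± 0.236). Of 20 nucleotide and polyamine synthesis genes 14 rose and 0 fell (median 1.28). Paics, of purine synthesis, had 1027, 832 and 812 CPM in d3 SSEA1- against 301, 195 and 212 CPM in MEF libraries (1.92 ± 0.174), and Ppat, the first committed enzyme of that route, 173, 103 and 121 CPM against 33.2, 24.9 and 23.9 CPM (2.27 ± 0.270). Of 16 histone chaperones 9 rose and 0 fell (median 1.26), among them Chaf1b, a CAF-1 subunit, with 60.4, 57 and 90.7 CPM against 28.6, 12.3 and 13.6 CPM (1.92 ± 0.421). Polycomb, BAF and H3K9 methylation genes were mixed. Of 38, 9 rose and 4 fell (median 0.28), where 15.3% of all tested genes were higher and 14.9% lower. Cbx7, a chromodomain subunit of PRC1, had 27.1, 24.7 and 41.4 CPM in d3 SSEA1- against 1.74, 2.6 and 4.45 CPM in MEF libraries (3.47 ± 0.528), and Ezh2, the H3K27 methylase of PRC2, 152, 85.7 and 109 CPM against 59.1, 32.3 and 29.6 CPM (1.51 ± 0.275). Kdm6b, an H3K27 demethylase, had 21.4, 43.5 and 31 CPM against 150, 149 and 162 CPM (-2.26 ± 0.276).

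Energy metabolism was lower on its hypoxia side. Of 29 glycolysis and hypoxia response genes 13 fell and 0 rose (median -1.02). Slc16a3, the lactate exporter, had 2.43, 10.6 and 5.71 CPM in d3 SSEA1- against 728, 399 and 393 CPM in MEF libraries (-6.34 ± 0.977). Bnip3, of mitophagy, had 16.2, 23.1 and 22.1 CPM against 340, 152 and 225 CPM (-3.55 ± 0.371), Vegfa, the angiogenic factor, 15.9, 36.2 and 42 CPM against 259, 437 and 328 CPM (-3.44 ± 0.512), and Pdk1, which restrains entry of pyruvate into mitochondria, 24.8, 37.1 and 34 CPM against 253, 109 and 153 CPM (-2.43 ± 0.253). Core glycolytic genes were less far apart or not called. Aldoa, an aldolase, had a change of -1.62 (adjusted p = 1.08e-04) and Ldha, lactate dehydrogenase, of -1.25 (adjusted p = 0.00215), while Gapdh had 1071, 1450.0 and 1952 CPM in d3 SSEA1- and 2428, 1610.0 and 1867 CPM in MEF libraries (-0.40 ± 0.295, adjusted p = 0.285). Between d3 SSEA1- and d3 SSEA1+ libraries the median difference of the list was -0.07, where that of all genes was 0.03. Of 32 respiratory chain genes 15 rose and 0 fell (median 0.93), but this count was 5 with the GC trend removed, 8 with DESeq2's size factors and 7 without MEF replicate 3. Ndufa4, a subunit of the terminal oxidase, had 210, 211 and 241 CPM in d3 SSEA1- against 90.4, 67.6 and 60.4 CPM in MEF libraries (1.60 ± 0.233).

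Detoxifying enzymes rose. Of 24 NRF2 targets and aldehyde-oxidising enzymes 22 were tested, of which 11 rose and 1, Aldh1a3, fell (median 1.03). NRF2 is the transcription factor of the antioxidant response. Beside Aldh3a1, Gsta4 had 640, 305 and 397 CPM in d3 SSEA1- against 5.17, 1.77 and 2.23 CPM in MEF libraries (7.13 ± 0.627, adjusted p = 1.18e-08). Nqo1, a quinone reductase, had 65.9, 85.9 and 77.2 CPM against 12.3, 8.18 and 10.4 CPM (2.89 ± 0.530), and Gclm, of glutathione synthesis, 202, 108 and 124 CPM against 35.7, 26.3 and 24.1 CPM (2.33 ± 0.286). Hmox1 and Srxn1 were not called. Hmox1, heme oxygenase, had 54.7, 51.7 and 49.3 CPM in d3 SSEA1- and 71.2, 69.3 and 81.5 CPM in MEF libraries (-0.51 ± 0.380, adjusted p = 0.290), and Srxn1, sulfiredoxin, 90, 59.2 and 53.7 CPM against 63, 52.1 and 54.7 CPM (0.26 ± 0.365, adjusted p = 0.605).

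Of 26 ATF4 targets, induced by amino acid and endoplasmic reticulum stress, 9 fell and 1 rose (median -0.64). Ddit3, CHOP, had 6.61, 8.03 and 9.16 CPM in d3 SSEA1- against 39.5, 47 and 50.5 CPM in MEF libraries (-2.52 ± 0.329). Trib3, a pseudokinase, had 0.648, 8.03 and 18.2 CPM against 127, 73.6 and 104 CPM (-3.49 ± 0.805), with d3 SSEA1- replicate 1 far below the other d3 SSEA1- libraries. The same library was lowest for Aldh1l2, a mitochondrial folate enzyme, with 3.4 CPM against 32.6 and 31 CPM in replicates 2 and 3. Slc7a3, a cationic amino acid transporter, rose, with 325, 94.5 and 141 CPM in d3 SSEA1- against 36.3, 47.9 and 31.2 CPM in MEF libraries (2.28 ± 0.595).

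Some epithelial genes rose and others were not called. Of 34 epithelial genes 9 rose and 1, Krt7, fell, where 15.3% of all tested genes were higher and 14.9% lower. The median was 1.56, or 1.03 with genes at 0 in a group set at their bound. Without MEF replicate 1 only 5 rose, a share near that 15.3%. Beside Ehf and Itgb4, St14, the membrane protease matriptase, had 12.4, 9.65 and 6.21 CPM in d3 SSEA1- against 0.465, 0.744 and 0.278 CPM in MEF libraries (4.19 ± 0.729). Dsc2, a desmosomal cadherin, had 26.9, 33.1 and 14.9 CPM against 1.34, 1.21 and 0.417 CPM (4.57 ± 0.685). Grhl3, a grainyhead factor of the epidermis, was listed at 0 in all MEF libraries and had 0.365, 0.853 and 1.21 CPM in d3 SSEA1- libraries (adjusted p = 0.00155). The genes that define an epithelial cell were low and not called. Cdh1, E-cadherin, had 4.9, 3.88 and 5.38 CPM in d3 SSEA1- and 1.16, 3.9 and 0.139 CPM in MEF libraries (1.40 ± 0.796, adjusted p = 0.161), and Epcam 0.77, 0.659 and 0.707 CPM against 0.523, 0.465 and 0.278 CPM (0.66 ± 0.752, adjusted p = 0.507). Of 15 keratinocyte markers 1, Perp, rose and 3 fell.

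Pluripotency genes were called about as often as all tested genes. Of 34, 7 rose and 3 fell (median 0.00), where 15.3% of all tested genes were higher and 14.9% lower. The number that rose was 4 without MEF replicate 1 or without MEF replicate 2. Sall1, a relative of the ES cell factor Sall4, had 11.5, 7.48 and 11.9 CPM in d3 SSEA1- against 3.83, 3.44 and 4.17 CPM in MEF libraries (1.44 ± 0.367). Nanog, the core factor of the naive state, had 0.284, 0.582 and 0.833 CPM in d3 SSEA1- and 1.22, 1.02 and 1.25 CPM in MEF libraries (-0.98 ± 1.05, adjusted p = 0.475). Klf2, a naive factor that fibroblasts also express, had 3.65, 2.02 and 2.52 CPM against 52.5, 44.7 and 60 CPM (-4.26 ± 0.834).

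Of 18 surface markers used in reprogramming 6 rose and 4 fell (median 0.12). Thy1, the fibroblast marker, had 198, 364 and 269 CPM in d3 SSEA1- against 925, 830.1 and 1058 CPM in MEF libraries (-1.76), and Pdgfrb, a receptor of mesenchyme, 7.98, 60.2 and 44.5 CPM against 800, 848 and 956 CPM (-4.53). Ly6a, the stem cell antigen Sca-1, had 376, 304 and 306 CPM against 24.6, 5.49 and 22.1 CPM (4.24 ± 0.712), and Cd24a, a mucin-like antigen, 909, 336 and 320 CPM against 106, 62.9 and 60.7 CPM (2.77 ± 0.644). Fut9, an enzyme that makes SSEA1, had 11.8, 2.83 and 3 CPM in d3 SSEA1- against 0.407, 0.558 and 0 CPM in MEF libraries (adjusted p = 5.13e-05), below the 48.1, 37.6 and 33.6 CPM of d3 SSEA1+ libraries (-2.77, adjusted p = 0.00144). Fut4 was not called, with 1.91, 2.33 and 2.58 CPM in d3 SSEA1- and 3.72, 4.28 and 1.95 CPM in MEF libraries.

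**Figure D4:**
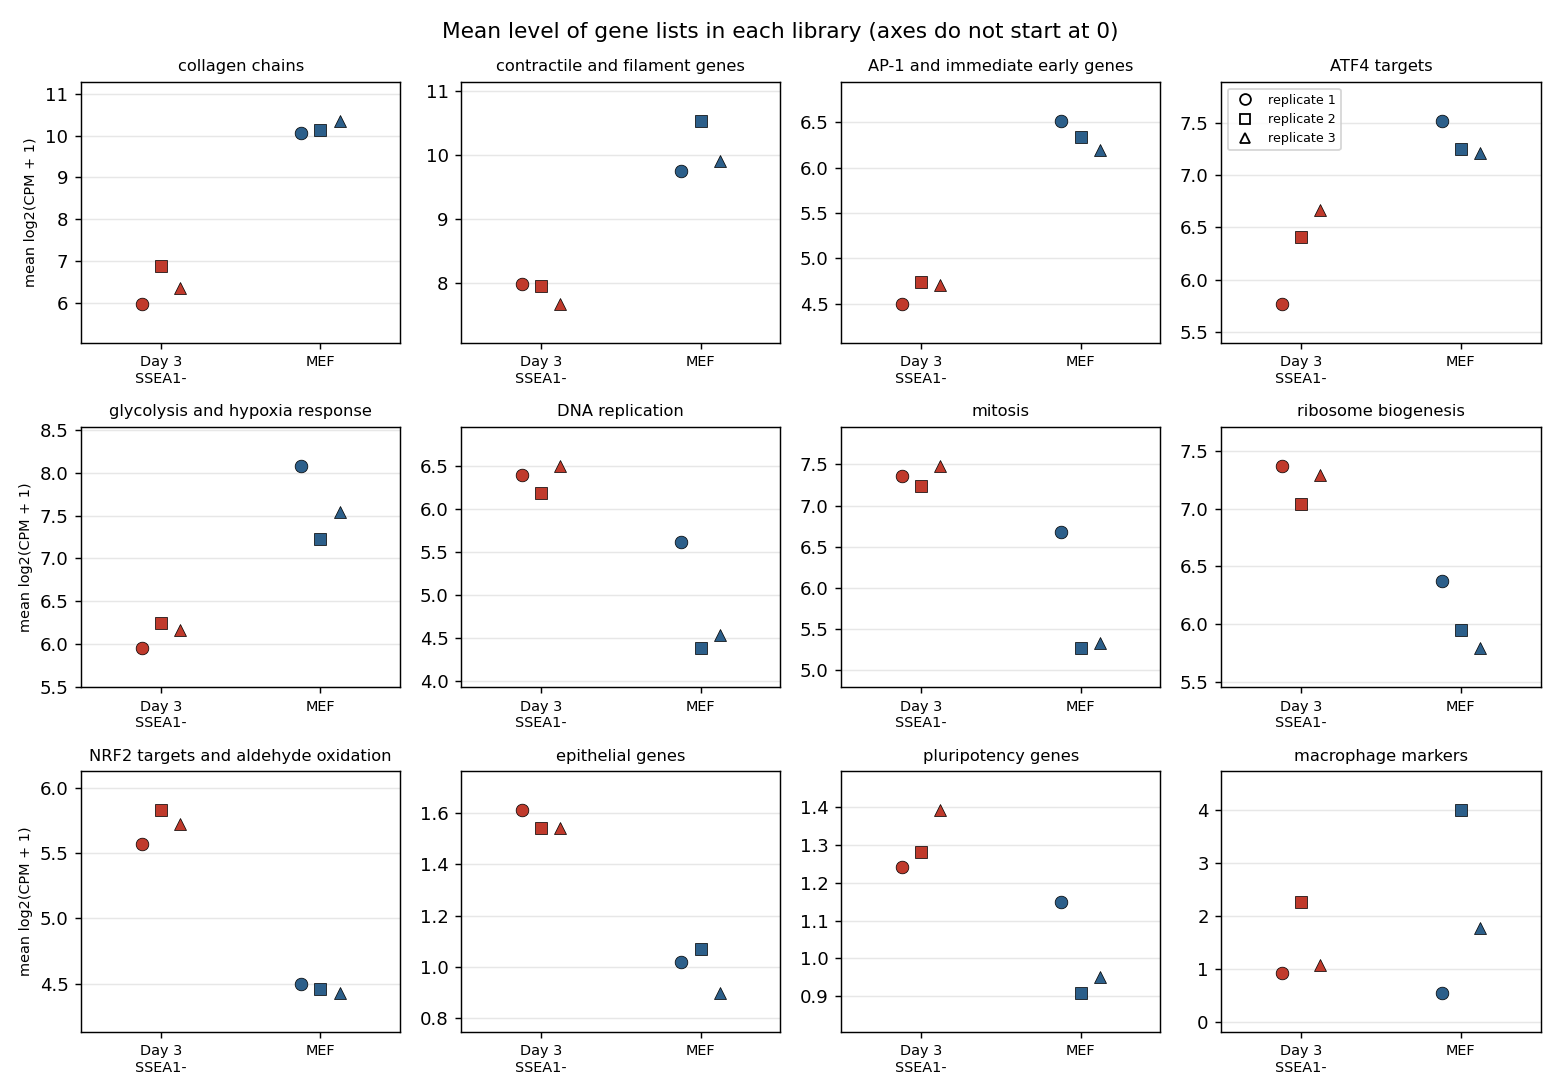
Mean level of selected gene lists in each library, as the mean over members of log2(CPM + 1), with d3 SSEA1- left of MEF in each panel and replicates as symbols; axes do not start at 0. MEF replicate 1, at 6.68 for the mitosis list, lies above the 5.27 and 5.33 of the other MEF libraries and below all d3 SSEA1- libraries.

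Markers of other cell types were read in the same libraries. Macrophage markers differed widely between replicates: Lyz2 had 0.203, 22.4 and 1.54 CPM in d3 SSEA1- and 1.34, 65.2 and 9.46 CPM in MEF libraries, and C1qa 0, 3.22 and 0.202 CPM against 0.232, 21.1 and 1.81 CPM, so replicate 2 is highest in both groups. Summed over the 14 markers the level was 177 to 312 CPM in d3 SSEA1- and 7.496 to 268 CPM in MEF libraries, most of it Laptm5 in d3 SSEA1- libraries. Without Laptm5, left out after its values were seen, the sum of the other 13 was 10.54, 54.21 and 11.01 CPM in d3 SSEA1- and 6.45, 236.1 and 37.02 CPM in MEF libraries. Of the 14, 1 fell, Csf1r, with 0.0405, 2.055 and 0.227 CPM in d3 SSEA1- against 1.05, 32.54 and 5.01 CPM in MEF libraries. Its groups overlap, and its adjusted p of 0.0422 rose to up to 0.350 with a library left out. With the replicate number as a block in an edgeR fit of these 2 groups, most of the 14 markers had an adjusted p under 0.05. Among them were Csf1r (0.00108), Lyz2 (0.00425) and C1qa (0.00531), each lower in every d3 SSEA1- library than in the MEF library of the same number. Cd68 did not pass (0.115). The share of all genes under 0.05 in that fit is not given. The 1 that rose was Laptm5, a lysosomal protein of blood cells, with 302, 123 and 180 CPM in d3 SSEA1- against 1.05, 31.8 and 4.59 CPM in MEF libraries (4.02 ± 0.719), and it does not follow Lyz2. The d3 SSEA1+ libraries had 462, 257 and 374 CPM of it. Of 12 endothelial markers 1 rose and 3 fell. The one that rose was Tek, the angiopoietin receptor, with 272, 162 and 185 CPM in d3 SSEA1- against 5.4, 0.93 and 3.48 CPM in MEF libraries (5.94 ± 0.472, adjusted p = 3.66e-09). The defining endothelial genes Pecam1, at 0.0505 to 0.233 CPM, and Cdh5, at 0.243 to 1.01 CPM, were near 0 in d3 SSEA1- libraries. Of 14 neural and glial markers 4 rose and 1 fell (median 0.72, or 0.29 with bounds), and those that rose included Stmn2, a tubulin-binding protein of neurons, with 530, 297 and 240 CPM against 34.4, 44.1 and 57.9 CPM (2.97 ± 0.620). The neuronal tubulin Tubb3 had 18.7, 10.6 and 16.3 CPM in d3 SSEA1- against 132, 59.3 and 47.2 CPM in MEF libraries (-2.39 ± 0.656). Of 12 tested cartilage and bone markers 9 fell and 1, Alpl, rose (median -4.06, or -3.59 with bounds). With both replicate 2 libraries left out, a setting chosen after these values were seen, 2012 genes were higher and 2558 lower. The part of these cell types in the results was not tested further.

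Set against the antigen-positive sort of the same day, the d3 SSEA1- cells had higher levels of some matrix genes and lower levels of 3 of the 4 reprogramming factors. Of all tested genes 677 were higher (3.91%) and 478 lower (2.76%) in d3 SSEA1- than in d3 SSEA1+ libraries, or 935 and 859 with the replicate number as a block in a fit of these 2 groups, whose same-numbered libraries deviate together. The block fits, here and against d6 SSEA1-, tested fewer members of some lists. The share of all genes that they called is not given, so their list counts have no such share to be set beside. Of 22 collagen chains 6 were higher and 0 lower (median 1.47, where the median of all genes was 0.03), and with the block 10 of 20 tested were higher. Postn had 4.94, 11.5 and 4.82 CPM in d3 SSEA1- and 0.897, 1.06 and 0.563 CPM in d3 SSEA1+ libraries (3.07 ± 0.826, adjusted p = 0.0157). Of 27 chemokines and cytokines 8 were higher and 0 lower, and 12 of 20 with the block. Cxcl12, which attracts blood progenitors, had 10.6, 35 and 17.8 CPM in d3 SSEA1- against 0.411, 0.729 and 0.921 CPM in d3 SSEA1+ libraries (4.97, adjusted p = 6.27e-04), and 358, 652 and 499 CPM in MEF libraries. Sox2, Klf4 and Myc were lower, and with the block Pou5f1 too. Epithelial genes counted 1 higher and 5 lower of 34, or 2 and 9 of 24 with the block, and pluripotency genes 0 higher and 4 lower of 34, or 0 and 9 of 17. The mitosis list had 0 called in either direction without the block (median -0.23), and Ccnb1 differed by 0.15 ± 0.350 between the sorts (adjusted p = 0.845). Without d3 SSEA1+ replicate 3 the counts over all genes were 283 and 248, and without d3 SSEA1- replicate 2 they were 355 and 334.

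Set against the same sort of day 6, the cell cycle and ATF4 genes were higher on day 3 and matrix genes lower. Over all genes 214 were higher (1.24%) and 805 lower (4.65%) in d3 SSEA1- than in d6 SSEA1- libraries, or 415 and 1647 with the replicate block. Of 30 mitosis genes 15 were higher and 0 lower (median 1.03, where the median of all genes was -0.02), or 16 with the block, and of 35 DNA replication genes 7 and 0, or 9 with the block. Of 26 ATF4 targets 11 were higher and 0 lower (median 0.85). Collagens counted 0 higher and 4 lower of 22, or 0 and 11 with the block. Postn (-4.01 ± 0.765, adjusted p = 0.00315) and Eln (-6.04 ± 0.794, adjusted p = 1.30e-04) were lower in d3 SSEA1- than in d6 SSEA1- libraries. Wnt genes counted 0 higher and 8 lower of 26, or 11 lower of 21 with the block, and interferon genes 0 higher and 7 lower of 28, or 1 and 13 of 26. Epithelial genes were also lower on day 3, with 0 higher and 8 lower of 34, or 2 and 11 of 24 with the block, among them Cdh1 (-3.24, adjusted p = 0.00962) and Epcam (-2.74, adjusted p = 0.00406). Macrophage markers stand beside these counts: 0 of 14 were called in either direction, and 10 of 13 were lower in d3 SSEA1- than in d6 SSEA1- libraries with the block. These counts rest on few libraries: without d3 SSEA1- replicate 1 only 41 genes were higher and 158 lower over all genes, without d6 SSEA1- replicate 2 they were 49 and 333, and without d6 SSEA1- replicate 1, 498 and 1054.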

How the data were processed

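The authors deposited raw counts of reads for each Ensembl gene in every library. Per the submitters' processing notes, which assign no roles, the tools were STAR 2.3.0, Picard 1.100 and HTSeq 0.6.0, with the build mm9; no annotation release was found in these sources. The deposited files' names alone say that strand was not used, so reads of overlapping antisense genes cannot be separated, and genes with near-identical copies are uncertain. Lines naming no gene stayed out: in these 6 libraries 5.32 to 6.95% of uniquely aligned reads lay in no gene, 2.5 to 3.07% were ambiguous, and 14.95 to 26.1% of all records had several alignments. Of 37583 gene IDs 32860 had a symbol in GENCODE M21, which is on a build other than mm9 and served for names, GC content and length only.

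Tests used edgeR 4.0.16 (glmQLFit robust, glmQLFTest) in R 4.3.3 on the counts, with TMM and filterByExpr, in one model of 33 libraries with a mean for each of 11 groups and 22 residual degrees of freedom. The code was tested on simulated counts. The d3 SSEA1- group, labelled as the samples' titles give it, was compared with MEF, d3 SSEA1+ and d6 SSEA1-. Values after ± in parentheses are approximate standard errors of the log2 fold change, its size over the square root of the F statistic. Alternatives were other scalings and filters, DESeq2 1.42.0, only the 2 groups compared, a replicate block in those 2 groups, removal of the GC trend (16680 genes), thinning to 8.93 M reads and leaving out each library.

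Named genes were the 15 largest increases and the 15 largest decreases among called genes whose groups do not overlap and whose higher group averages 10 CPM or more, without predicted genes, RIKEN clones or unnamed IDs. Up to 4 called members of each list in each direction and a set of factors and markers were added. Other genes named for their role were chosen after their values were seen. The comparison, its members and the lists were chosen with earlier results of these data known. The labels do not say what a replicate number shares. Deviations of same-numbered libraries from their group means correlated at 0.47, 0.35 and 0.42 between d3 SSEA1- and d3 SSEA1+ and at 0.65, 0.56 and 0.48 between d3 SSEA1- and d6 SSEA1-, so the data pair these libraries.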

Additional observations from a re-analysis of the deposited data

How the results depend on the processing

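In d3 SSEA1- against MEF libraries each alternative kept the counts of higher and lower genes within 1.5 times of 2651 and 2574, except the replicate block with GC correction, at 1748 higher. Leaving out 1 library gave 1892 to 2763 higher and 2305 to 2678 lower. Same-numbered d3 SSEA1- and MEF libraries correlated at 0.05, 0.1 and 0.14 and not always best with their own number. Macrophage markers such as Lyz2 were still highest in replicate 2 of both groups. What same-numbered libraries of these 2 groups share was not tested. The replicate block gave 1947 higher and 2569 lower. Of the genes called higher 64.5% were called again with the GC trend removed, and of those called lower 83.5%, and with DESeq2 76.8% and 99.2%.

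Against d3 SSEA1+ the block gave 859 lower, and leaving out 1 library 283 to 742 higher and 248 to 406 lower. Against d6 SSEA1- the higher and lower counts were 415 and 1647 with the block, 411 and 1518 with the block and GC correction, and 58 and 212 with only the 2 groups compared. The higher count was 119 without TMM and 131 without a filter, the lower count was 1229 with DESeq2, and leaving out 1 library gave 41 to 498 higher and 158 to 1054 lower. Why these counts moved was not tested, beyond the fewer libraries in some fits.

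Of 254 named genes 1 reversed direction with the GC trend removed. Some calls changed too: Fasn and Sfn were among those no longer called, and Klf4 gained a call. Several genes that were not called changed sign, given here as log2 fold changes. Cdh2 had 0.08 without TMM and -0.73 to 0.02 with a library left out. Cdkn1b had 0.16 without TMM and -0.39 to 0.12 with a library left out. Cdkn2a had 0.09 without TMM, 0.29 with GC correction, 0.57 with the block and GC correction, and -0.70 to 0.14 with a library left out. Fos had 0.21 with the block, 0.45 with the block and GC correction, and -0.89 to 1.10 with a library left out. Twist1 had 0.12 with the block and GC correction. With a library left out, Lyz2 had -4.77 to 0.57, C1qa -6.01 to 0.19 and Srxn1 -0.04 to 0.36. Pecam1 had -0.29 with thinned counts, -0.53 with both replicate 2 libraries left out, and -0.11 to 4.45 with 1 library left out. The cause was not tested. At 8.93 M reads in the shallowest MEF library, genes under about 0.336 CPM cannot be told from absent there.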

Other observations

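Imprinted genes, expressed from 1 parental allele, fell more often than they rose: of 21 tested 8 fell and 2 rose in d3 SSEA1- against MEF libraries (median -1.10). Peg3, a paternally expressed zinc finger gene, had 18.2, 37.5 and 56.4 CPM in d3 SSEA1- and 593, 222 and 316 CPM in MEF libraries (-3.33, adjusted p = 2.09e-04, edgeR). Dlk1, a Notch-family ligand, had 1.18, 1.67 and 3.48 CPM in d3 SSEA1- against 302, 17.4 and 47.6 CPM in MEF libraries (-5.84, adjusted p = 0.00128). MEF replicate 1 was the highest MEF library for both, and the lowest for the maternal transcript Meg3, at 84.8 CPM against 933 and 781 CPM in MEF replicates 2 and 3.

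Of 27 tested chemokine and inflammatory genes 5 rose and 5 fell (median 0.25), shares near the 15.3% higher and 14.9% lower of all tested genes. Ccl2, which attracts monocytes, had 55.6, 164 and 72.1 CPM in d3 SSEA1- and 27.2, 9.02 and 14.1 CPM in MEF libraries (2.52, adjusted p = 0.00504), and Nfkbia, the inhibitor of NF-kappaB, 58.6, 156 and 90.7 CPM against 27.8, 37.6 and 31.9 CPM (1.65, adjusted p = 2.13e-04). Ptgs2, the inducible cyclooxygenase, had 120.3, 58.9 and 30.4 CPM in d3 SSEA1- and 312, 890.1 and 399 CPM in MEF libraries (-2.93, adjusted p = 0.00372). For each of these 3 genes every d3 SSEA1- library lay on the same side of all MEF libraries. Of 28 tested interferon and antigen presentation genes 7 fell and 2 rose (median -0.87), and 0 to 2 rose and 4 to 9 fell with a library left out. Of 24 cholesterol and lipid synthesis genes 4 fell and 0 rose (median -0.43), a share of lower genes near the 14.9% of all tested genes. With the GC trend removed 1 fell. Among 13 DNA methylation and TET genes 4 rose and 1, Tet1, fell. Hells, a chromatin remodeller needed for DNA methylation, had 224, 114 and 142 CPM in d3 SSEA1- against 58.1, 29.3 and 28.9 CPM in MEF libraries (2.04, adjusted p = 7.53e-05).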
